A study of Mus musculus with 8 samples.

Results

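The genes described here are 47 DNA replication genes of the mouse, chosen by name for the steps they serve, from recognition of the replication origin to the supply of deoxynucleotides. Their rows were taken by gene symbol from 2 deposited tables, 1 for hair follicle stem cells (HFSCs) and 1 for epidermal stem cells (EpdSCs). The HFSC table used here held 46 of the 47 among 23861 genes, Orc1 having no row in it, and the EpdSC table held 47 of 47 among 16231 genes.

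In G1 phase the origin recognition complex, Cdc6 and Cdt1 load the Mcm2-7 helicase onto origins, and in S phase the Cdc7 kinase with its partner Dbf4, Cdc45 and the GINS complex turn that helicase on. Polymerases, the sliding clamp and its loader, the single-strand binding complex RPA and the enzymes that join Okazaki fragments then copy the DNA, drawing on deoxynucleotides made by ribonucleotide reductase and thymidylate enzymes. HFSCs of resting follicles are largely quiescent, whereas basal EpdSCs divide throughout life, and transcription of most of these genes is known to follow the E2F factors at the entry into S phase.

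The study asked what loss of Msx2, a homeobox transcription factor, does to skin stem cells, and bulk RNA was sequenced from cells sorted from dorsal skin in telogen. The mutant mice (Msx2-KO) were homozygous for an allele with a neomycin cassette inserted upstream of exon 2, and the wild-type (WT) controls were C57BL/6J mice matched for hair cycle stage. HFSCs were sorted as CD34+CD49f+Sca-1- cells and EpdSCs as CD34-CD49f+Sca-1+ cells. Each cell type had 2 WT and 2 Msx2-KO libraries, 8 in all. WT HFSCs came from mice of 2 months and Msx2-KO HFSCs from mice of 6 months, so that age and genotype cannot be told apart in HFSCs. In EpdSCs both genotypes were 6 months old. The labels do not say whether replicates were separate mice, so p-values measure the spread between these libraries only.

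The targeted gene was counted first. In HFSCs Msx2 stood at 43.2 and 13.8 in WT against 26.6 and 23.3 under the Msx2-KO label (normalized counts; log2 fold change -0.20 ± 1.23, adjusted p = 0.975). In EpdSCs it stood at 58.5 and 85.4 in WT against 150.3 and 22.2 under the Msx2-KO label (log2 fold change -0.27 ± 1.10, adjusted p = 0.865). Neither pair of groups separated, so these counts do not check the genotype labels, and the effect of the inserted cassette on the Msx2 transcript was not tested. The libraries are therefore named by their labels, and higher or lower below always means in libraries labelled Msx2-KO relative to WT. A normalized count is, in HFSCs, an estimated count scaled for depth and composition, and in EpdSCs the authors' own normalized value. The 2 tables were scaled separately, so levels and tests were kept within a table.

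Depth and composition differed between the libraries. The HFSC totals were 4324511 and 3132974 estimated counts in WT and 11016659 and 6895606 under the Msx2-KO label. The mitochondrial ribosomal RNAs mt-Rnr1 and mt-Rnr2 took 8.94 and 36.3% of the WT totals and 49.4 and 53.2% of those labelled Msx2-KO. The libraries labelled Msx2-KO detected fewer genes with at least 1 count, 11409 and 14251 against 22448 and 19596. In EpdSCs the deposited normalized values summed to 16478545 and 14681964 in WT and 24694442 and 14216483 under the Msx2-KO label. There mt-Rnr1 and mt-Rnr2 took 23.5 and 16.4% in WT and 0.07 and 6.18% under the Msx2-KO label. The fits below with mitochondrial and ribosomal RNA genes left out dropped a wider set, all mitochondrially encoded and ribosomal RNA genes. All 46 members in the HFSC table had counts in both WT libraries, but 12 were at 0 in replicate 1 of the Msx2-KO label and 5 in its replicate 2. All 47 had values in both WT EpdSC libraries and in Msx2-KO replicate 2, and 4 were at 0 in EpdSC Msx2-KO replicate 1. The part of library composition in the differences below was not tested.

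Summed over the members, their share was 1053 and 865 per 1000000 nuclear protein-coding counts in WT HFSCs and 1752 and 1390.1 in those labelled Msx2-KO. In EpdSCs it was 1298 and 1439 in WT and 1290.0 and 1716 under the Msx2-KO label. On this scale the HFSC groups did not overlap and the EpdSC groups did. Per 1000000 of all counts it was the reverse, with 805 and 414 in WT HFSCs against 589.5 and 372 under the Msx2-KO label, and 783 and 974 in WT EpdSCs against 1149.8 and 1467. Mcm7 alone made up 28.4 and 23.1% of the members' sum in the EpdSC libraries labelled Msx2-KO. The largest member in WT EpdSCs, Mcm6, made up 7.5 and 8.2%. The separation in EpdSCs is therefore not read as a shift of the members in general. In bulk samples a smaller share of cells of a type and less RNA per cell cannot be told apart. Per kilobase of exon, the members with the highest mean in WT HFSCs were Rfc1 (38.1 normalized counts per kilobase) and Gins4 (36.7), and those in WT EpdSCs were Mcm6 (229.5), Pcna (219.8) and Rfc1 (171). Mcm10 had the lowest level per kilobase among the members with a row in both tables, 0.658 in WT HFSCs and 6.21 in WT EpdSCs. On the same scale the highest members under the Msx2-KO label were Lig1 (78.2) in HFSCs and Mcm7 (1455) in EpdSCs.

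In HFSCs no replication gene passed the test (edgeR, adjusted p under 0.05 and fold change over 2) in either direction, and neither did any of the 14422 genes tested, 0% higher and 0% lower. At an unadjusted p under 0.05 with the same fold change, 1 member was higher (Lig1) and 1 lower (Rfc4), beside 5.02% and 12.2% of all genes. DESeq2 called no member, beside 2.63% of genes higher and 3.15% lower, and limma-trend called 0 members higher and 1 lower (Rfc4, adjusted p = 0.0327), beside 1.1% and 8.66%. Of the 40 members tested, 24 had a positive and 16 a negative log2 fold change, with a median of 0.23 against -0.14 over all genes. Both Msx2-KO-labelled libraries lay above WT for 12 of the 40 (30%, against 17.5% of all genes) and below WT for 9 (22.5%, against 33.5%). The 6 members with a row that fell under the filter on low counts were Mcm10, Cdc6, Gmnn, Cdc7, Gins1 and Gins3. Without Msx2-KO replicate 1, 4 of 43 members were called higher (9.3%, against 15.1% of all genes) and 5 lower (11.6%, against 21.5%), the lone library being assumed to vary like WT. Without Msx2-KO replicate 2 it was 14 of 43 higher (32.6%, against 17.3%) and 16 lower (37.2%, against 41.8%), and without either WT library no member was called, against at most 0.607% of genes in a direction.

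The spread within the HFSC groups was unequal. The 2 WT libraries differed by over 2-fold for 5 of 40 members, and the 2 libraries labelled Msx2-KO for 24 of 40, beside 14.7% and 56.9% of all genes tested. Scaling by library totals shifted the median over all genes by -0.86 and took that of the members to -0.60. The members' median was 0.0885 without Msx2-KO replicate 1, 0.61 without WT replicate 1 and 0.0905 without WT replicate 2. It stood 0.37 above that of all genes, and 0.40 above with library totals, but this distance was 0.96 without Msx2-KO replicate 2, 0.23 without WT replicate 2, 0.59 with a replicate block, 0.58 with at least 10 counts in every library, and 0.88 both with DESeq2 and with no filter on low counts.

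In EpdSCs 1 of 47 replication genes was called, Pold1, which was lower (limma on the log2 of value + 1, adjusted p under 0.05 and fold change over 2), beside 7.78% of 16231 genes lower. No member was called higher, beside 1.57% of genes, and 5 members were higher at an unadjusted p under 0.05 with that fold change, namely Mcm7, Cdt1, Prim2, Rfc2 and Fen1, beside 12.2% of genes. Pold1 was the only member lower by that looser rule, beside 23.1% of genes. Of the 47, 25 had a positive and 22 a negative log2 fold change, with a median of 0.18 against -0.64 over all genes. The groups did not overlap for 20 members that were higher (42.6%, against 27.8% of all genes) and 12 that were lower (25.5%, against 44.5%). Without Msx2-KO replicate 1, 6 members were called higher (12.8%, against 12.9% of all genes) and 4 lower (8.51%, against 24.7%). Without Msx2-KO replicate 2 it was 15 higher (31.9%, against 23.1%) and 16 lower (34%, against 40.9%), and without either WT library no member and no other gene was called.

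As in HFSCs, the EpdSC libraries labelled Msx2-KO differed more from each other than the WT libraries did. The 2 WT libraries were within 2-fold for all 47 members, and the 2 labelled Msx2-KO differed by over 2-fold for 26 of 47, beside 14.5% and 62% of all genes. The sign of the members' median turned with the scaling, to -0.09 with library totals and to -0.36 with mitochondrial and ribosomal RNA genes left out, while the median of all genes went to -0.88 and -1.14, so that the members stood 0.79 and 0.78 above all genes in place of 0.81. With 1 library left out this distance lay between 0.65 and 0.96. The members' median itself was 0.11 without Msx2-KO replicate 2 and 0.12 without WT replicate 1.

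**Figure D1:**
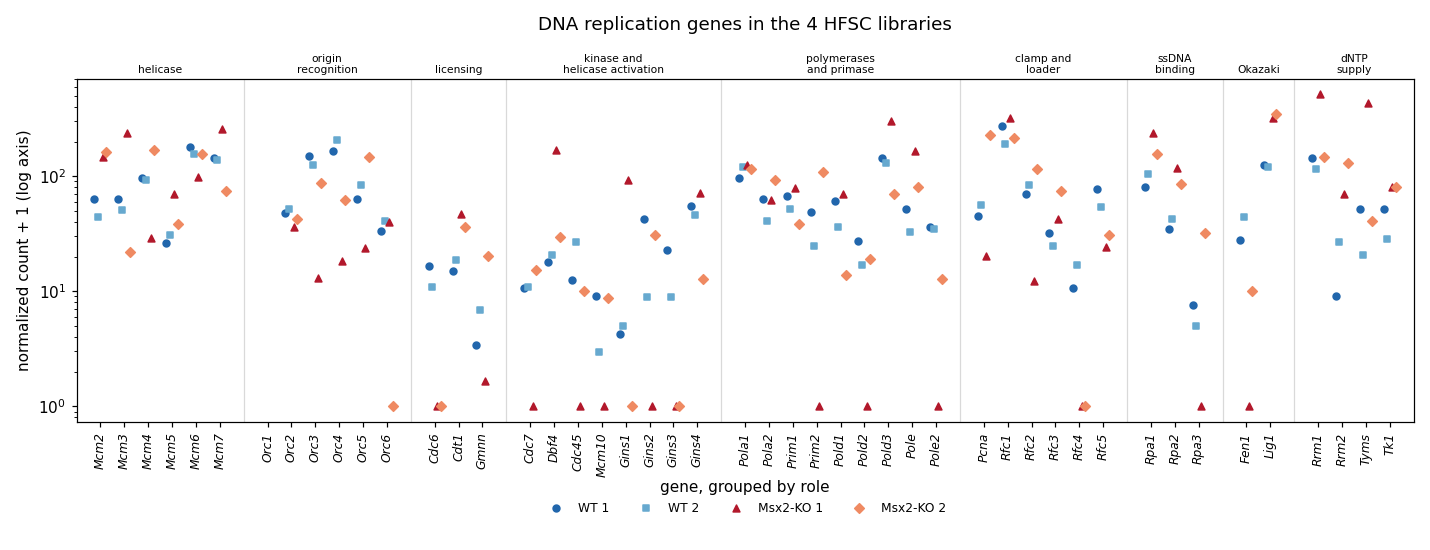
Normalized counts plus 1 (log axis) of each DNA replication gene in the 4 HFSC libraries, grouped by role. Each point is 1 library; Cdc6, Gins3 and Rfc4 were at 0 in both Msx2-KO-labelled libraries, and Orc1 has no point.

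**Figure D2:**
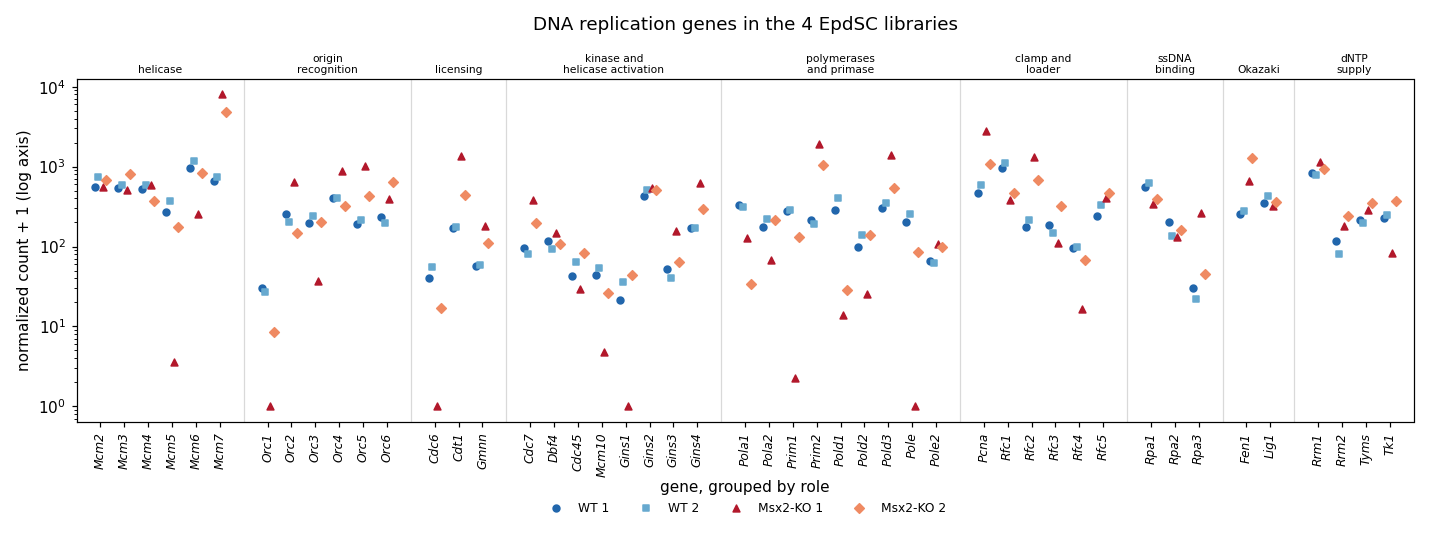
Normalized counts plus 1 (log axis) of the 47 genes in the 4 EpdSC libraries, each point 1 library. The WT points lie close together, and in Msx2-KO replicate 1 Orc1, Cdc6, Gins1 and Pole sit at 0.

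The Mcm2-7 helicase unwinds the DNA ahead of the polymerases and is built from 6 related subunits. In HFSCs 5 of the 6 genes had a positive log2 fold change, from 0.07 for Mcm4 to 1.54 for Mcm2, and Mcm6 had -0.41. With library totals 3 of the 6 were positive. Mcm2 measured 61.9 and 43.4 in WT against 147 and 162 under the Msx2-KO label (log2 fold change 1.54 ± 0.57, adjusted p = 0.283), and its groups did not overlap. Mcm5 measured 25.2 and 29.6 in WT against 68.5 and 37.5 under the Msx2-KO label (log2 fold change 0.95 ± 1.05, adjusted p = 0.793). Both Msx2-KO-labelled libraries lay above WT here too, but by less than the standard error of the fold change. Mcm7 measured 144 and 136 in WT against 255 and 73.8 under the Msx2-KO label (log2 fold change 0.23 ± 0.72, adjusted p = 0.944), with 1 library labelled Msx2-KO above WT and the other below.

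In EpdSCs Mcm7 stood apart from the rest of the helicase. It measured 656 and 747 in WT against 8059 and 4819 under the Msx2-KO label (log2 fold change 3.15 ± 0.54, adjusted p = 0.0506), the most positive log2 fold change of all members, just outside the threshold. Both Msx2-KO-labelled libraries were far above WT, and Mcm7 alone made up 28.4 and 23.1% of the summed values of the members there. Mcm7 lies at chr5:138164583-138172422 (GRCm38, minus strand), where the annotation also places Mir25, Mir93 and Mir106b on its strand and Cops6 and Ap4m1 on the other. How strand was used in counting is not given in the sources used here, so that reads of these overlapping genes may be counted together. Mcm2 measured 551 and 738 in WT against 558 and 679 under the Msx2-KO label (log2 fold change -0.05 ± 0.49, adjusted p = 0.946), and the groups overlapped. Mcm5 measured 272 and 373 in WT against 2.55 and 177 under the Msx2-KO label (log2 fold change -3.67 ± 2.10, adjusted p = 0.272). Both Msx2-KO-labelled libraries were below WT, replicate 1 near 0 and replicate 2 much closer to WT, which gives the fold change its large error. The other 3 genes had log2 fold changes from -1.22 (Mcm6) to 0.18 (Mcm3).

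The origin recognition complex marks the origins on which the helicase is loaded. In HFSCs 4 of the 5 genes with a row had a negative log2 fold change, from -2.25 (Orc4) to -0.36 (Orc2), and Orc5 had 0.20. The sign of Orc5 turned with library totals. Orc4 measured 164 and 205 in WT against 17.3 and 60.9 under the Msx2-KO label (log2 fold change -2.25 ± 0.83, adjusted p = 0.283), and Orc6, the smallest subunit, 32.6 and 39.5 in WT against 39.2 and 0 under the Msx2-KO label (log2 fold change -0.86 ± 2.23, adjusted p = 0.931). The groups were apart for Orc4 and overlapped for Orc6, where 1 library labelled Msx2-KO matched WT and the other had no count.

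In EpdSCs Orc1, an ATP-binding subunit of the complex, measured 29.2 and 25.6 in WT against 0 and 7.41 under the Msx2-KO label (log2 fold change -3.29 ± 1.21, adjusted p = 0.151). The levels were low in all 4 libraries, and both Msx2-KO-labelled libraries were below WT. Orc6 measured 234 and 197 in WT against 396 and 636 under the Msx2-KO label (log2 fold change 1.22 ± 0.53, adjusted p = 0.188), with both Msx2-KO-labelled libraries above WT. The other 4 genes ranged from -1.35 (Orc3) to 1.70 (Orc5). With mitochondrial and ribosomal RNA genes left out, 2 of the 6 genes were positive in place of 4.

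Cdc6 and Cdt1 bring the helicase to the origin, and geminin, the product of Gmnn, blocks Cdt1 once S phase has begun. Cdc6 had 15.5 and 9.86 normalized counts in WT HFSCs and 0 and 0 under the Msx2-KO label, at least 4.31-fold lower against a floor of 3 counts per library, and it was not tested because of its low counts. Cdt1 measured 13.8 and 17.8 in WT against 45.9 and 35 under the Msx2-KO label (log2 fold change 1.35 ± 1.13, adjusted p = 0.692). The groups did not overlap, at 9 to 69 estimated counts a library. Gmnn was not tested, with 2.44 and 5.92 normalized counts in WT and 0.665 and 19.4 under the Msx2-KO label, with overlap.

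In EpdSCs all 3 genes were tested. Cdt1 measured 169 and 176 in WT against 1356 and 439 under the Msx2-KO label (log2 fold change 2.15 ± 0.75, adjusted p = 0.137) and Gmnn 56.3 and 56.9 in WT against 182 and 111 under the Msx2-KO label (log2 fold change 1.31 ± 0.52, adjusted p = 0.169). For this factor and its inhibitor alike, both Msx2-KO-labelled libraries exceeded the WT pair, and neither passed the test. Cdc6 pointed the other way, with 39 and 55 in WT against 0 and 16.2 under the Msx2-KO label (log2 fold change -3.51 ± 1.56, adjusted p = 0.196), both below WT.

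Cdc7 is the kinase that fires licensed origins, Dbf4 its regulatory subunit, and Cdc45, Mcm10 and the 4 GINS subunits convert the loaded helicase into its active form. In HFSCs 4 of the 8 were tested. Dbf4 measured 17.1 and 19.7 in WT against 166 and 28.5 under the Msx2-KO label (log2 fold change 2.40 ± 1.24, adjusted p = 0.454), with Msx2-KO replicate 1 far above the other 3 libraries and replicate 2 also above WT. Cdc45 measured 11.4 and 25.6 in WT against 0 and 9.06 under the Msx2-KO label (log2 fold change -2.04 ± 2.07, adjusted p = 0.765), and both Msx2-KO-labelled libraries were below WT at no more than 14 estimated counts a library. Gins2 measured 41.5 and 7.89 in WT against 0 and 29.8 under the Msx2-KO label (log2 fold change -0.75 ± 2.46, adjusted p = 0.949), and its groups overlapped. Cdc7 was not tested, with 9.77 and 9.86 normalized counts in WT and 0 and 14.2 under the Msx2-KO label. Mcm10, also untested, had 8.14 and 1.97 in WT and 0 and 7.77 in those labelled Msx2-KO, and like Cdc7 it overlapped between the groups. Gins3 was at 0 in both Msx2-KO-labelled libraries and at 22 and 7.89 in WT, at least 5.08-fold lower against the same floor.

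In EpdSCs 5 of these 8 genes had a positive log2 fold change, and 3 of 8 with library totals. Cdc7 measured 94.2 and 79.7 in WT against 378 and 196 under the Msx2-KO label (log2 fold change 1.64 ± 0.58, adjusted p = 0.142), with the groups well apart. Cdc45 measured 42.2 and 62.6 in WT against 28 and 81.5 under the Msx2-KO label (log2 fold change -0.10 ± 0.74, adjusted p = 0.929) and overlapped between the groups. Gins2 measured 425 and 506 in WT against 535 and 508 under the Msx2-KO label (log2 fold change 0.17 ± 0.47, adjusted p = 0.804), so that its groups were apart by a margin smaller than the spread within WT. Mcm10 measured 43.3 and 52.2 in WT against 3.82 and 24.9 under the Msx2-KO label (log2 fold change -2.12 ± 1.00, adjusted p = 0.21), both Msx2-KO-labelled libraries being below WT. The other GINS genes ran from -2.07 (Gins1) to 1.32 (Gins4).

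Polymerase alpha with primase (Pola1, Pola2, Prim1, Prim2) starts each new strand, polymerase delta (Pold1 to Pold3) extends the lagging strand and polymerase epsilon (Pole, Pole2) the leading strand. In HFSCs 5 of the 9 genes had a positive and 4 a negative log2 fold change, and 1 of 9 was positive with library totals. Pola1 measured 95.3 and 118 in WT against 124 and 114 under the Msx2-KO label (log2 fold change 0.16 ± 0.51, adjusted p = 0.947) and Prim1 66.8 and 51.3 in WT against 78.4 and 37.5 under the Msx2-KO label (log2 fold change -0.02 ± 0.90, adjusted p = 0.996), both overlapping between the groups. Pold1, the catalytic subunit of polymerase delta, measured 60.3 and 35.5 in WT against 68.5 and 12.9 under the Msx2-KO label (log2 fold change -0.23 ± 1.26, adjusted p = 0.974) and overlapped as well. Pole, the catalytic subunit of polymerase epsilon, measured 50.5 and 31.6 in WT against 164 and 79 under the Msx2-KO label (log2 fold change 1.56 ± 0.79, adjusted p = 0.447), with both Msx2-KO-labelled libraries above WT. Its partner Pole2 measured 35 and 33.5 in WT against 0 and 11.7 under the Msx2-KO label (log2 fold change -2.57 ± 2.25, adjusted p = 0.711), with both below WT, 1 of them at 0.

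In EpdSCs Pold1 fell. It measured 287 and 406 in WT against 12.7 and 27.6 under the Msx2-KO label (log2 fold change -4.11 ± 0.62, adjusted p = 0.0426), and both Msx2-KO-labelled libraries were far below WT. The gene lies at chr7:44532746-44548849 (GRCm38, minus strand) and is overlapped by Mir7053 on its strand and Gm44833 on the other. Without WT replicate 1 or WT replicate 2 its adjusted p was 0.371 and 0.389, and it was 0.0674 with library totals, 0.0621 with mitochondrial and ribosomal RNA genes left out, 0.0627 with a pseudocount of 0.1 and 0.051 with a replicate block, in a range of 0.012 to 0.389 over all alternatives. With library totals, mitochondrial and ribosomal RNA genes left out, the smaller pseudocount and the block, in that order, its log2 fold change was -4.36, -4.62, -4.18 and -4.11. With any 1 library left out the log2 fold change of Pold1 lay between -4.64 and -3.58.

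The other catalytic subunits of the polymerases were also lower in both EpdSC libraries labelled Msx2-KO, without passing the test. Pola1 measured 328 and 307 in WT against 127 and 33 under the Msx2-KO label (log2 fold change -2.27 ± 0.83, adjusted p = 0.151). Prim1, the catalytic subunit of primase, measured 280.5 and 283 in WT against 1.27 and 131 under the Msx2-KO label (log2 fold change -4.03 ± 2.17, adjusted p = 0.251), and Pole 204 and 255 in WT against 0 and 83.6 under the Msx2-KO label (log2 fold change -4.64 ± 2.37, adjusted p = 0.234). Both were at or near 0 in Msx2-KO replicate 1 and much closer to WT in Msx2-KO replicate 2, so that the size of the fold change rests on 1 library. Prim2, the large subunit of primase, went the other way, with 213 and 189 in WT against 1908 and 1055 under the Msx2-KO label (log2 fold change 2.82 ± 0.56, adjusted p = 0.0629). Both of its libraries labelled Msx2-KO were several-fold above WT. Pold3 and Pole2 were higher in both as well (1.40 and 0.69), whereas Pola2 and Pold2 overlapped between the groups.

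Pcna encodes the sliding clamp that holds polymerases on DNA, and Rfc1 to Rfc5 the loader that opens it. In HFSCs 3 of the 6 had a positive log2 fold change, and 2 of the 6 with library totals. Pcna measured 44 and 55.2 in WT against 19.3 and 225 under the Msx2-KO label (log2 fold change 1.30 ± 1.30, adjusted p = 0.763), with Msx2-KO replicate 1 below WT and Msx2-KO replicate 2 several-fold above. Rfc1, the large subunit of the loader, measured 272 and 187 in WT against 322 and 212 under the Msx2-KO label (log2 fold change 0.22 ± 0.40, adjusted p = 0.901), and the groups overlapped. Rfc4, a small subunit, had 9.77 and 15.8 in WT and 0 and 0 under the Msx2-KO label, at least 4.35-fold lower against the floor (edgeR adjusted p = 0.143). It rested on 12.1 and 7.66 estimated counts in WT, and with Rfc4 at this bound the median over the members was still 0.23.

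In EpdSCs Pcna measured 471 and 584 in WT against 2776 and 1091 under the Msx2-KO label (log2 fold change 1.73 ± 0.68, adjusted p = 0.165) and Rfc2 172 and 214 in WT against 1307 and 673 under the Msx2-KO label (log2 fold change 2.28 ± 0.59, adjusted p = 0.0906). For the clamp and this small loader subunit the groups were apart, Msx2-KO replicate 1 being the highest in both. Rfc1 measured 952 and 1108 in WT against 382 and 466 under the Msx2-KO label (log2 fold change -1.28 ± 0.48, adjusted p = 0.154), with both Msx2-KO-labelled libraries below WT and close to each other. Rfc4 measured 93.6 and 97.3 in WT against 15.3 and 66.2 under the Msx2-KO label (log2 fold change -1.54 ± 0.87, adjusted p = 0.267), and these groups did not overlap either. Rfc3 and Rfc5 had log2 fold changes of 0.18 and 0.64.

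Rpa1, Rpa2 and Rpa3 form the complex that coats single-stranded DNA at the fork. In HFSCs all 3 had positive log2 fold changes, also with library totals, but Rpa3 turned to -0.82 with a replicate block. Rpa1 measured 79.8 and 103 in WT against 238 and 154 under the Msx2-KO label (log2 fold change 1.11 ± 0.49, adjusted p = 0.372) and Rpa2 33.4 and 41.4 in WT against 116 and 84.2 under the Msx2-KO label (log2 fold change 1.42 ± 0.77, adjusted p = 0.483). Both Msx2-KO-labelled libraries were above both WT libraries for each. Rpa3 had 6.52 and 3.94 in WT and 0 and 31.1 in those labelled Msx2-KO, 1 of them at 0. In EpdSCs Rpa1 measured 550.2 and 626 in WT against 337 and 397 under the Msx2-KO label (log2 fold change -0.68 ± 0.47, adjusted p = 0.343), lower in both Msx2-KO-labelled libraries, and Rpa2 200.4 and 135 in WT against 131 and 162 under the Msx2-KO label (log2 fold change -0.17 ± 0.51, adjusted p = 0.818), with overlap. Rpa3 was higher in both, at 2.08 on the log2 scale.

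Fen1 trims the flap at the end of each Okazaki fragment and Lig1 seals the nick. In HFSCs they pointed opposite ways. Lig1 measured 124 and 118 in WT against 319 and 348 under the Msx2-KO label (log2 fold change 1.46 ± 0.32, adjusted p = 0.143), and its replicates were closely spaced in both groups. It had the lowest unadjusted p of the members with a positive fold change, 0.00898, and shares its adjusted p of 0.143 with Rfc4, the smallest reached by any gene of the table. Lig1 lies at chr7:13277283-13311433 (GRCm38, plus strand), overlapped by Zswim9 on the other strand. Fen1 measured 26.9 and 43.4 in WT against 0 and 9.06 under the Msx2-KO label (log2 fold change -2.96 ± 2.24, adjusted p = 0.652), and 1 of the libraries labelled Msx2-KO was at 0. In EpdSCs Fen1 measured 257 and 278 in WT against 656 and 1296 under the Msx2-KO label (log2 fold change 1.78 ± 0.58, adjusted p = 0.127), with both Msx2-KO-labelled libraries above WT, and Lig1 349.9 and 432 in WT against 319.6 and 363 under the Msx2-KO label (log2 fold change -0.19 ± 0.48, adjusted p = 0.784), with overlap.

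Ribonucleotide reductase (Rrm1 and Rrm2) makes deoxynucleotides, and thymidylate synthase (Tyms) and thymidine kinase (Tk1) provide thymidylate. In HFSCs all 4 had positive log2 fold changes, also with library totals and with any 1 library left out. Their median was 1.96, and 1.18 with library totals and 0.55 without Msx2-KO replicate 1. Rrm1 measured 142 and 114 in WT against 514 and 145 under the Msx2-KO label (log2 fold change 1.36 ± 0.71, adjusted p = 0.458). Rrm2, the subunit made in S phase, measured 8.14 and 25.6 in WT against 69.1 and 128 under the Msx2-KO label (log2 fold change 2.56 ± 1.10, adjusted p = 0.359), and Tk1 50.5 and 27.6 in WT against 79.1 and 80.3 under the Msx2-KO label (log2 fold change 1.02 ± 0.87, adjusted p = 0.7). The groups of these 3 genes did not overlap (75% of the 4, against 17.5% of all genes higher in this way). Tyms measured 51.3 and 19.7 in WT against 433 and 40.1 under the Msx2-KO label (log2 fold change 2.71 ± 1.33, adjusted p = 0.43), the most positive member in HFSCs, but Msx2-KO replicate 2 lay between the WT libraries.

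In EpdSCs 3 of these 4 genes had positive log2 fold changes. Rrm1 measured 836 and 787 in WT against 1142 and 926 under the Msx2-KO label (log2 fold change 0.34 ± 0.47, adjusted p = 0.615) and Rrm2 117 and 80.6 in WT against 177 and 237 under the Msx2-KO label (log2 fold change 1.07 ± 0.52, adjusted p = 0.219). Tyms measured 212 and 196 in WT against 288 and 351 under the Msx2-KO label (log2 fold change 0.64 ± 0.47, adjusted p = 0.37). Both Msx2-KO-labelled libraries were above WT for these 3 (75% of the 4, against 27.8% of all genes), by small margins for Rrm1. Tk1 measured 228 and 248 in WT against 82.8 and 368 under the Msx2-KO label (log2 fold change -0.44 ± 0.90, adjusted p = 0.733), with 1 library on each side of WT. With mitochondrial and ribosomal RNA genes left out, 2 of these 4 genes had positive log2 fold changes.

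**Figure D3:**
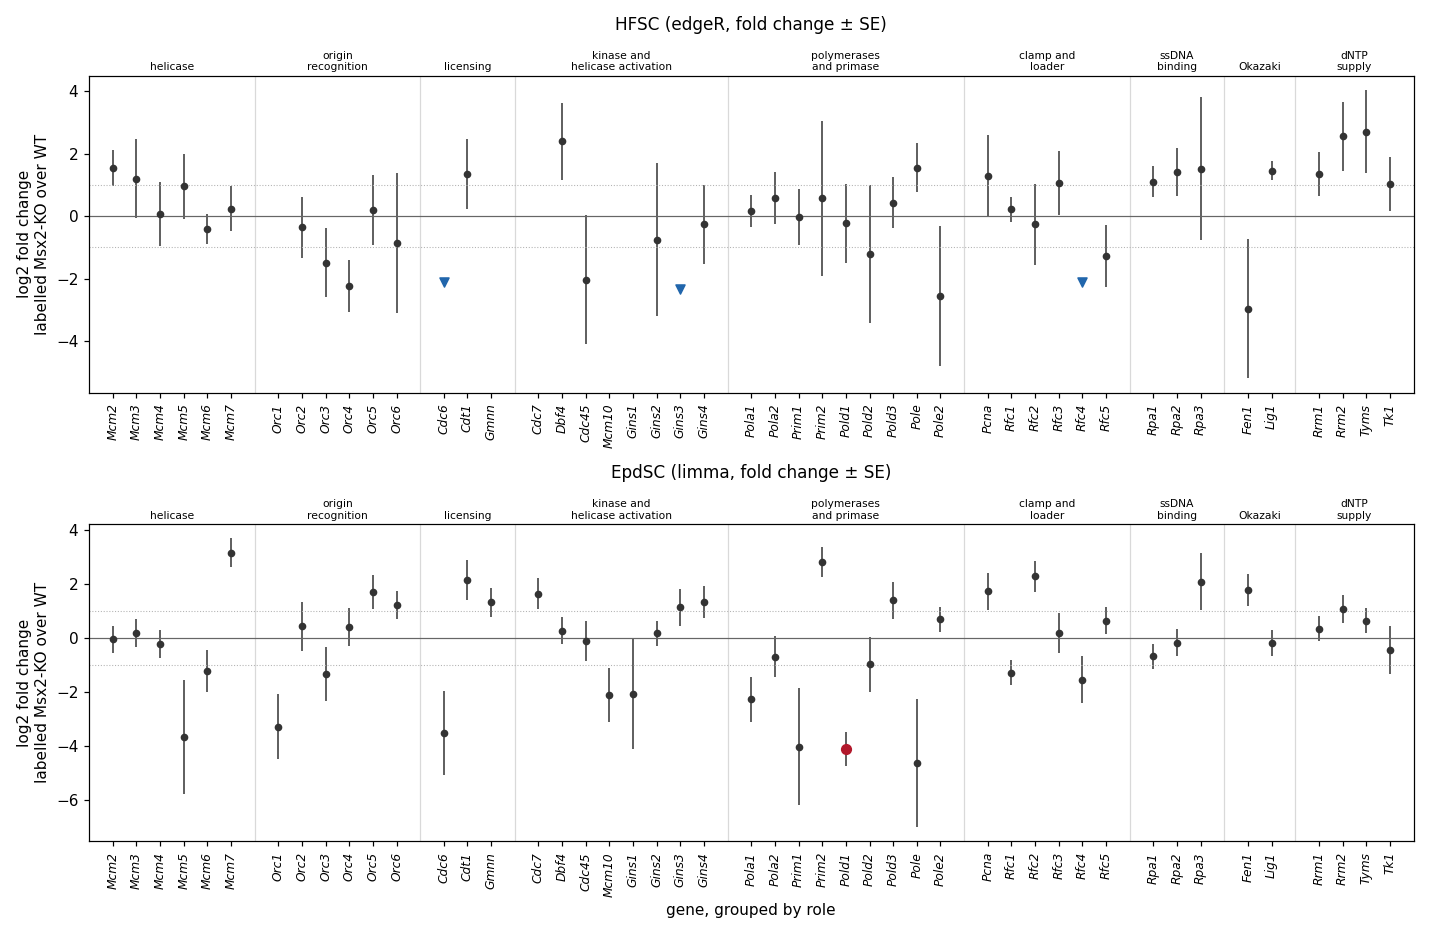
Log2 fold change ± SE of each tested gene, libraries labelled Msx2-KO over WT, in HFSCs (top) and EpdSCs (bottom), with dotted lines at 2-fold; the red point is Pold1, the only member called. Blue triangles in the top panel mark the bounds of Cdc6 (4.31-fold), Gins3 (5.08-fold) and Rfc4 (4.35-fold), which were at 0 in both Msx2-KO-labelled libraries.

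Of the 46 members with a row in both tables, 3 had both Msx2-KO-labelled libraries above WT in both cell types (6.52%, against 4.98% of the 15337 genes in both tables) and 3 had both below WT in both (6.52%, against 16.7%). There were 7 with groups apart in opposite directions (15.2%, against 15.8% of genes), 3 higher in HFSCs and lower in EpdSCs and 4 the reverse. The groups overlapped in HFSCs alone for 13 members higher in EpdSCs (28.3%, against 13.5%) and 5 lower there (10.9%, against 21.7%). They overlapped in EpdSCs alone for 6 members higher in HFSCs (13%, against 4.28%) and 4 lower there (8.7%, against 9.96%), and in both cell types for 5 (10.9%, against 13%). A difference between the cell types was not tested, since the tables hold different units.

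Other genes of replication, G1/S regulators and mitosis genes were described in the same way. Of 36 other replication genes tested in HFSCs, 24 had positive log2 fold changes (median 0.38, between -1.30 and 0.71 with 1 library left out), and 11 of 36 with library totals. In EpdSCs 13 of 38 were positive (median -0.46), with 1 called lower (2.63%, against 7.78% of all genes) and 0 higher (against 1.57%). The gene called was Recql4, a helicase that takes part in origin firing. It fell from 97.3 and 74.6 in WT to 0 and 2.72 under the Msx2-KO label (log2 fold change -5.48 ± 0.84, adjusted p = 0.0431). Rnaseh2c, a subunit of the enzyme that removes ribonucleotides from DNA, measured 217 and 192 in WT against 0 and 18.8 under the Msx2-KO label (log2 fold change -5.53 ± 1.63, adjusted p = 0.11). In HFSCs Mcm8 had 22.8 and 13.8 in WT and 0 in both Msx2-KO-labelled libraries, and the cyclin gene Ccne2 30.1 and 13.8 and again 0 in both, at least 6.23-fold and 7.47-fold lower against the floor.

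The G1/S regulators had a median of 0.60 in HFSCs (20 of 29 positive, 11 with library totals) and 0.76 in EpdSCs (24 of 30 positive, 16 with mitochondrial and ribosomal RNA genes left out), and none was called. With 1 library left out these medians lay between 0.32 and 0.68 and between 0.64 and 1.24. Mitosis genes had higher medians than the replication genes in both cell types. Their log2 fold changes were positive for 26 of 26 in HFSCs (median 3.24), with 0 called, and 22 of 27 in EpdSCs (median 2.01), with 4 called higher (14.8%, against 1.57% of all genes). In HFSCs Ccnb2, a mitotic cyclin gene, measured 2.44 and 1.97 in WT against 116 and 40.1 under the Msx2-KO label (log2 fold change 5.05 ± 1.36, adjusted p = 0.155), and Cdc20, an activator of the anaphase-promoting complex, 10.6 and 1.97 in WT against 262 and 58.3 under the Msx2-KO label (log2 fold change 4.56 ± 1.36, adjusted p = 0.19). In EpdSCs the genes called were Cdk1, Ccnb2, Aurkb and Prc1, which serve mitotic entry and the spindle, and all 4 were above WT in both libraries labelled Msx2-KO. Cdk1 measured 53.1 and 56.9 in WT against 1455 and 655 under the Msx2-KO label (log2 fold change 4.13 ± 0.62, adjusted p = 0.0416), and Ccnb2 63.9 and 49.3 in WT against 439 and 479 under the Msx2-KO label (log2 fold change 3.01 ± 0.48, adjusted p = 0.0457). Aurkb measured 42.2 and 54.1 in WT against 362 and 352 under the Msx2-KO label (log2 fold change 2.88 ± 0.48, adjusted p = 0.0487), and Prc1 544 and 406 in WT against 6153 and 5145 under the Msx2-KO label (log2 fold change 3.58 ± 0.49, adjusted p = 0.036). The cyclin gene Ccnb1 was not called, at 84.8 and 81.6 in WT against 2521 and 570.1 under the Msx2-KO label (log2 fold change 3.83 ± 0.90, adjusted p = 0.0805). Mki67, a marker of cycling cells, measured 2517 and 2055 in WT against 7.64 and 294 under the Msx2-KO label (log2 fold change -5.49 ± 1.90, adjusted p = 0.138), against the direction of most of its list.

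Markers of the sorted cells and of others were read beside these values. In HFSCs the 13 HFSC markers had a median of -0.65 (11 negative, 0 called), with Krt15 the most abundant, and their sums were 77984 and 75901 normalized counts in WT and 43434 and 44780 under the Msx2-KO label, none at 0 in any library. The 9 EpdSC markers in that table had a median of -0.80. Of 10 sebaceous gland genes, 10 had both Msx2-KO-labelled libraries above WT (100%, against 17.5% of all genes), and 0 were called. Their sums were 570.1 and 635 in WT and 10735 and 8506 under the Msx2-KO label, where Scd1 was the most abundant. Cidea of that list was at 0 in WT and at 25.2 and 81.6 in the others. Suprabasal epidermal genes had a median of 3.33 over 10 genes (8 positive), with sums of 3127 and 3057 in WT and 5921 and 19395 under the Msx2-KO label, where Krt10 was the most abundant. The melanocyte marker Tyrp1 had 6.52 and 41.4 in WT and 0 in both others, while 2 of the 5 melanocyte genes tested had positive log2 fold changes. The muscle gene Acta1 had 0 and 1.97 in WT and 197 and 42.7 under the Msx2-KO label, and the other 4 muscle genes in the table went the other way, from low values in WT to 0 in both Msx2-KO-labelled libraries. The immune, fibroblast and endothelial lists each summed to at most 398 normalized counts in any HFSC library. The part of cell composition in the members' values was not tested.

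In EpdSCs the 10 EpdSC markers had a median of 0.56, 6 of them positive and 4 negative, and the median was 0.0251 with mitochondrial and ribosomal RNA genes left out. Both Msx2-KO-labelled libraries were above WT for 5 of them (50%, against 27.8% of all genes) and below WT for 3 (30%, against 44.5%). Krt14, the most abundant of them under the Msx2-KO label, measured 71870 and 84160 in WT against 392200 and 275200 under the Msx2-KO label. Itgb4 went the other way, from 7432 and 11070 in WT to 183 and 1148 under that label. So did Dst, from 54530 and 78760 to 19600 and 7249. Of 12 suprabasal genes, 7 had both Msx2-KO-labelled libraries below WT (58.3%, against 44.5% of all genes) and 5 had overlapping groups, with sums of 281226 and 199970 in WT and 49465 and 74952 under the Msx2-KO label, and 2 were called lower (16.7%, against 7.78%). These were Sbsn, at 8563 and 6441 in WT against 748 and 648 under the Msx2-KO label (log2 fold change -3.41 ± 0.49, adjusted p = 0.0388), and Ivl, at 433 and 232 in WT against 2.55 and 9.44 under the Msx2-KO label (log2 fold change -5.71 ± 0.80, adjusted p = 0.0368). Of 7 sebaceous genes, 4 had positive and 3 negative log2 fold changes. Both Msx2-KO-labelled libraries were above WT for 3 (42.9%, against 27.8% of all genes) and below WT for 2 (28.6%, against 44.5%). The 7 genes had a median of 0.14, or -0.13 with library totals and -0.40 with mitochondrial and ribosomal RNA genes left out. They summed to 8795 and 8501 in WT and 140721 and 16512 under the Msx2-KO label, which in Msx2-KO replicate 1 was mostly Fabp5, at 1279 and 697 in WT against 114800 and 4821 under the Msx2-KO label (log2 fold change 4.64 ± 1.75, adjusted p = 0.157). The 12 HFSC markers, of which Itga6, Krt5 and Krt14 are also in the EpdSC list, had a median of 1.28 (9 positive, 3 negative), or 0.75 with mitochondrial and ribosomal RNA genes left out. Of the 12, 1 was called higher, Postn (8.33%, against 1.57% of all genes). It measured 457 and 488 in WT against 10770 and 8326 under the Msx2-KO label (log2 fold change 4.32 ± 0.48, adjusted p = 0.0281), above WT in both. Of 7 hair matrix and germ genes, 2 had both Msx2-KO-labelled libraries above WT (28.6%, against 27.8% of all genes) and 3 had both below (42.9%, against 44.5%). The other 2 had overlapping groups, and 2 genes of the list were called lower (28.6%, against 7.78%). The keratin genes Krt71 and Krt27 of that list, at 41.2 and 22.8 and at 16.2 and 17.1 in WT, were listed at 0 in both Msx2-KO-labelled libraries, each with adjusted p = 0.0281 in limma. Immune genes summed to 1066 and 118 in WT and 25.5 and 13.5 under the Msx2-KO label, with Cd74 at 374 and 37.9 in WT against 0 and 2.7 under the Msx2-KO label. Their part in the members' values was not tested.

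The promoters of the members were searched for short motifs of cell cycle genes, since many of these genes are known E2F targets. RefSeq promoters (GRCm38.p6) were found for 39 of the 47 genes, 48 promoters in all, and the 250 bases upstream of each start were read on both strands. An E2F motif, TTTCGCGC or TTTGGCGC, was in 5 of the 48 (10.4%), beside 0.654% of 32851 promoters of all genes; the motifs can overlap each other. The NF-Y motif CCAAT was in 24 of 48 (50%), beside 33.8%, and the CHR motif TTTGAA in 6 of 48 (12.5%), beside 16%. The 5 genes with an E2F motif were Mcm5, Mcm6, Orc1, Pola1 and Rfc3. Their log2 fold changes in EpdSCs were -3.67, -1.22, -3.29, -2.27 and 0.18, the last turning to -0.09 with library totals. In HFSCs those of Mcm5, Mcm6, Pola1 and Rfc3 were 0.95, -0.41, 0.16 and 1.07, Orc1 having no row and Pola1 turning to -0.64 with library totals. The windows below show the motif in its promoter for the 3 of them with the motif upstream of the gene in the RefSeq and the GENCODE annotation alike, each 5′ to 3′ on the strand of the gene, with the match in capitals. They lie at chr8:75109345-75109374 (plus strand), chr1:128359793-128359822 (minus strand) and chrX:93632275-93632304 (minus strand).
Mcm5: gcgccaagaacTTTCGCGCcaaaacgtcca
Mcm6: gtatgcttttgGCGCGAAAagtgcgtgcgg
Pola1: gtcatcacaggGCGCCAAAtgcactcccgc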

How the data were processed

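Bulk RNA from 8 libraries (2 cell types, 2 genotype labels, 2 replicates each) was sequenced after a SMARTer total RNA preparation. The authors aligned reads with STAR 2.7.3a in Partek Flow to GRCm38 and deposited an estimated count per gene for HFSCs. For EpdSCs the authors deposited normalized counts, a signal on a scale of their own. Estimated counts were rounded and tested with edgeR 4.0.16 (TMM, filterByExpr, quasi-likelihood F test). The EpdSC signal was tested with limma 3.58.1 on the log2 of value + 1. P-values were adjusted by Benjamini-Hochberg over all genes tested in a table, and a gene was called at adjusted p under 0.05 and fold change over 2. DESeq2 1.42.0, limma-trend and other scalings, filters, pseudocounts and leave-one-out fits were tried as alternatives. With 2 against 2 libraries the smallest exact permutation p is 0.333. Tested on simulated data, the fits called nearly all large differences where replicates were close and almost none where they were far apart; the HFSC libraries, with a common dispersion of 0.82, were further apart than either. Members and lists were chosen with earlier results of these data known. Genes given in every library are fixed representatives of each role, the 3 most positive and 3 most negative members per cell type, any called gene, and the 2 most positive and negative of the other lists. The authors' comparison columns (GSA) were not used.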

Additional observations from a re-analysis of the deposited data

Results flagged for a closer look

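For 6 of 40 tested members (15%, beside 16.5% of the 13151 genes tested in both cell types), both libraries labelled Msx2-KO lay on one side of WT in HFSCs and on the opposite side in EpdSCs. Log2 fold changes were 0.95 in HFSCs and -3.67 in EpdSCs for Mcm5, 1.56 and -4.64 for Pole, and 1.11 and -0.68 for Rpa1. The reverse held for Pole2 (-2.57 in HFSCs and 0.69 in EpdSCs), Rfc5 (-1.28 and 0.64) and Fen1 (-2.96 and 1.78). The share of members with opposite directions was no higher than that of all genes, and none of these genes was called in either cell type. The difference between the cell types was not tested for any of them, and age differed between the genotype labels in HFSCs only.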

How the results depend on the processing

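In HFSCs, 0 genes were called higher and 0 lower with edgeR. DESeq2 called 374 and 448, limma-trend 158 and 1249, and library totals gave 16 and 35. At least 10 counts in every library gave 2 higher. Leaving out 1 library gave 90 to 2711 genes higher and 35 to 6561 lower, and among members 0 to 14 higher and 0 to 16 lower. The cause was not tested. Of the members, limma-trend called 1 lower, Rfc4. The HFSC median of 0.23 went to 0.66 with at least 10 counts, -0.60 with library totals and 0.0275 with limma-trend, and lay between 0.0885 and 0.61 with 1 library left out.

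Of the members called with 1 library left out, those whose sign then differed from the sign reported were Mcm4 (-1.75 to 0.82), Orc5 (-1.67 to 0.99), Prim2 (-8.33 to 1.49) and Pold3 (-1.03 to 1.13), all in HFSCs. The first 3 turned negative without Msx2-KO replicate 2 and Pold3 without Msx2-KO replicate 1. The -8.33 of Prim2 was fitted against a library at 0 counts, Msx2-KO replicate 1, so only its sign is read.

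In EpdSCs, 255 genes called higher became 684 with an intensity trend, 619 with a pseudocount of 10, 162 with a pseudocount of 0.1 and 1192 at adjusted p under 0.1. The 1263 lower became 2682 at that threshold. With 1 library left out they were 0 to 3745 and 0 to 6631. Members called higher went from 0 to 2 with the trend and with a pseudocount of 10 (Mcm7 and Prim2), to 3 at adjusted p under 0.1, and to 0 to 15 with 1 library left out. Pold1, the 1 member called lower, was lost (0 called) with library totals, with mitochondrial and ribosomal RNA genes left out and with a pseudocount of 0.1, at log2 fold changes of -4.36, -4.62 and -4.18 against -4.11 as reported, and 1 library left out gave 0 to 16. The EpdSC median of 0.18 went to -0.0895 with library totals and -0.36 without mitochondrial and ribosomal RNA genes, and lay between 0.11 and 0.25 with 1 library left out.

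Replicates of the same number did not deviate together (correlation -0.0444 in HFSCs and -0.0225 in EpdSCs). A replicate block gave 145 HFSC genes higher and 86 lower, an HFSC member median of -0.0609, and 0 EpdSC members called lower. A test of counts recovered from the EpdSC values, planned for the case that they were whole multiples of 1 count, was not run. Of EpdSC values below 1000, 64.2 to 82.7% lay within 0.02 of one, no minimum share having been set. By the same rule 71.1 to 89.8% of HFSC estimated counts below 1000 were whole, so the share does not set the tables apart.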
